A study of Mus musculus with 2 samples.

Results

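The genes described here carry glucose through the cell: 36 genes for the uptake of glucose, the steps of glycolysis, the formation and export of lactate, and the pentose phosphate pathway. They are defined by gene symbol, and all 36 were found among the 16803 genes of the table. RNA was sequenced from NE4C cells, a neural stem cell line of the mouse, grown in Eagle's minimal essential medium on plates coated with poly-L-lysine. NE4C is a clonal line made from the forebrain of mouse embryos that lack p53, so both cultures share that deficiency. The control library came from a normal culture, and the HTL-treated library from a culture given HTL, short for homocysteine thiolactone. HTL is the cyclic, reactive product of homocysteine and forms bonds with lysines in proteins. The dose and the duration of the treatment are not stated for these 2 libraries, and neither is the composition of the medium at harvest. The study's methods describe a spell in low serum before HTL was given to NE4C cells, and whether either of these cultures went through it is not stated. The question was how the levels of these genes differed between the treated culture and the normal culture.

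Each condition had 1 library, so no value below has a replicate check. The control library held 10350665 reads and the HTL-treated library 9102076. Every gene whose reads in both libraries summed to at least 10 was tested, which was 13442 genes and all 36 of this pathway. Differences are given as the log2 ratio of HTL treatment to control reads after scaling to the library totals. The interval after each ratio is its 95% counting interval, and adjusted p-values come from an exact binomial test of a gene's reads against the library totals. Intervals and tests cover counting error only and compare these 2 libraries, not the conditions. Where a pair of values is given for a gene, the control value stands before the HTL value. Levels are given as FPKM, which divides reads by transcript length and library size, since FPKM alone allows genes of unlike length to be set side by side. Both libraries held the transcripts of a neural stem cell line: 10 of the 11 markers had at least 10 reads in each, and Fabp7 had 2 reads in each. The summed level of these markers was 636 CPM (reads scaled to a library of a fixed size) in the control and 489 CPM in the HTL-treated library, with Sox1, Sox2, Sox3 and Vim called lower and Notch1 called higher. Markers of neurons moved from 55.6 to 60.2 CPM, astrocytes from 79.4 to 83.4, oligodendrocytes from 18.7 to 21.1, fibroblasts from 10.6 to 11.1, endothelium from 6.09 to 4.94 and microglia or blood from 1.84 to 1.76. Within these sums single markers differed: Dcx of the neuron list was called lower (log2 ratio -1.40), Tubb3 of the same list was at 0.60, and Aldh1l1 of the astrocyte list was called higher, from 21 to 56 reads. Gfap, a defining astrocyte gene, had 2 control reads and 0 after HTL. The part of cell state in the values below was not tested. In bulk RNA, fewer cells with a transcript and less of it per cell cannot be told apart.

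Glycolysis splits glucose into pyruvate in the cytosol and yields a little ATP at each pass. Proliferating stem cells and tumour cells often turn much of that pyruvate into lactate even when oxygen is present. Many steps are encoded by several related genes, whose products, called isoenzymes, differ in affinity, in regulation and in the tissues that use them. The pentose phosphate pathway branches off at glucose 6-phosphate and supplies NADPH and the ribose of nucleotides. The hypoxia-inducible factor HIF and the oncoprotein MYC are textbook activators of many of these genes.

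The pathway as a whole did not shift in a single direction between the libraries. Of the 36 genes, 18 had a log2 ratio above 0 and 18 below 0, with a median of 0.020. Among all genes tested the median was -0.14 and 58.7% lay below 0. Against that median gene, 24 of the 36 genes were above and 12 below. At an adjusted p of at most 0.001, 11 genes of the pathway were higher after HTL, where 14.5% of all genes tested were, and 11 were lower, where 24.1% were. The remaining 14 did not pass. Together 61.1% of the pathway's genes passed against 38.6% of all genes. These genes are deeply read, with a median of 1057 reads per library against 193 for all genes tested, and of the 1931 genes with at least 1057 reads 71.7% passed, 33.6% as higher and 38.1% as lower. When an absolute log2 ratio of at least 1 was also required, only Hk2 and Eno2 were called, both lower, and no gene of the 36 was called higher. Over all genes tested this rule called 10.8%, with 7.98% lower and 2.81% higher. With TMM scaling Aldoc was called higher as well, at 1.02. These passes allow for counting error only. When edgeR's exact test was run with a biological coefficient of variation set at 0.1, Hk2 and Eno2 were the only 2 of the 36 genes with an adjusted p of at most 0.001, against 22 without it, and 9 had one of at most 0.05. At 0.2, neither Hk2 (adjusted p of 0.0825) nor Eno2 (adjusted p of 0.0465) was called. With a log2 ratio of at least 0.5 instead, a cutoff added after the values were seen, 4 genes were higher (8.9% of all genes) and 6 lower (18.2% of all genes).

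The split into higher and lower genes depended on the scaling. With TMM or upper quartile scaling, 14 genes were higher and 8 lower at the same adjusted p, and with median of ratios scaling 16 were higher and 8 lower. Under all 4 scalings the same 11 genes were higher: Slc2a3, Gpi1, Pfkl, Aldoc, Gapdh, Pgk1, Ldhb, Slc16a1, Pgls, Tkt and Taldo1. The same 8 were lower under all 4: Slc2a1, Hk2, Pfkfb3, Aldoa, Tpi1, Eno2, Ldha and Slc16a3. Of the 4 scalings, only that to the library totals placed Pfkm, Pfkfb2 and Pkm among the lower genes. Hk1, Pgam1 and Pgm1 joined the higher genes under the other scalings, and Pfkfb1 and Pgm2 with median of ratios scaling. Both sets hold genes of uptake, of glycolysis proper and of lactate handling.

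**Figure D1:**
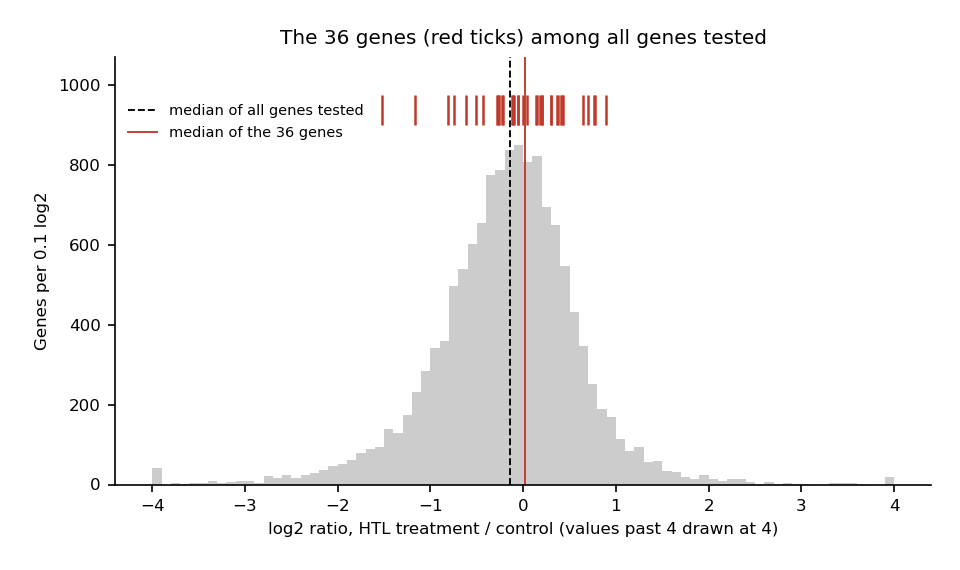
Histogram of the log2 ratio (HTL treatment over control, x axis) of the 13442 genes tested, with the number of genes per 0.1 log2 on the y axis. Red ticks mark the 36 genes, which spread from -1.53 to 0.89 around a median of 0.020 (red line), beside a median of -0.14 for all genes (dashed line).

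The upstream sequences of some genes of the pathway are shown because HIF and MYC bind short motifs that can be read off directly. HIF recognises ACGTG or GCGTG, the core of the hypoxia response element. MYC recognises the E-box CACGTG, which contains ACGTG. RefSeq windows of 300 bases (250 before and 50 after the start site, GRCm38.p6) were held for 35 of the 36 genes, 53 windows in all, and not for Slc2a3. Of the HIF cores only ACGTG was searched, on both strands, so a gene without it may still hold GCGTG. It was present in 22 of the 53 windows, or 41.5%, against 19.6% of all 32851 windows of this length and 25.1% of the 13553 windows of genes tested. By gene, 9 of the 11 genes lower in the HTL-treated library and 4 of the 10 genes that were higher and have a window held it, as did 5 of the 14 others, beside 29.2% of the 10615 genes tested that have a window. The lower genes also have more windows. By window the counts were 13 of 21 for the lower, 4 of 11 for the higher and 5 of 21 for the others. Of the 8 genes lower under all 4 scalings, 6 held it, and Eno2 and Tpi1 did not. The higher genes that held it were Slc16a1, Pgk1, Gapdh and Aldoc, the last 2 only after the start site. With the other scalings, compared after the values were seen, Hk1, Pgam1 and Pgm1 counted as higher, and 7 of 13 higher genes held it with TMM or upper quartile scaling. With median of ratios scaling, which added Pgm2, 8 of 15 did, so by gene the difference from the lower genes was smaller there. By window it was much the same with median of ratios scaling. There 66.7% of the lower and 40.0% of the higher windows held it, beside 61.9% and 36.4% with scaling to the library totals. With scaling to the library totals, CACGTG was in 4 of 21 windows of the lower genes, 1 of 11 of the higher and 0 of 21 of the others. Among the windows of genes tested, 9.82% held it. CCAAT and GGGCGG, searched in the same way, were in 41.5% and 60.4% of the pathway's windows and in 38.1% and 62.9% of those of genes tested. By gene they were in 51.4% and 82.9% of the pathway, against 43.7% and 69.6%. These motifs varied between the groups too. CCAAT was in 28.6% of the lower, 27.3% of the higher and 61.9% of the other windows, and GGGCGG in 52.4%, 72.7% and 61.9%. A match says only that the letters are there. Some windows of a gene overlap each other, so that a match can be counted more than 1 time, as in Aldoa. Whether HIF or MYC acts on these genes was not tested. The 250 bases before the start site follow, written 5′ to 3′ on the strand of the gene, with ACGTG or its reverse complement CACGT in capitals (CACGTG where both strands match). Slc2a1, Hk2, Eno2, Ldha and Slc16a3 were lower in the HTL-treated library, while Ldhb, the partner of Ldha, Slc16a1, the partner of Slc16a3, and Pgk1 were higher. Aldoc, Pfkfb2, Pfkfb3 and Tpi1, whose ratios were larger in size than those of Ldha and Pgk1, are not shown. Of these, Pfkfb2 and Pfkfb3 held ACGTG before the start site, and Aldoc and Tpi1 did not.
Slc2a1 (chr4:119108495-119108744, plus strand): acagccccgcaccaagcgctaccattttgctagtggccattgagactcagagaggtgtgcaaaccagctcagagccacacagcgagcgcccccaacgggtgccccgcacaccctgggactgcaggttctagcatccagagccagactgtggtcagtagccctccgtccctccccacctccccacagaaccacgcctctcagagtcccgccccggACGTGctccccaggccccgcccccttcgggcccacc
Hk2 (chr6:82774455-82774704, minus strand): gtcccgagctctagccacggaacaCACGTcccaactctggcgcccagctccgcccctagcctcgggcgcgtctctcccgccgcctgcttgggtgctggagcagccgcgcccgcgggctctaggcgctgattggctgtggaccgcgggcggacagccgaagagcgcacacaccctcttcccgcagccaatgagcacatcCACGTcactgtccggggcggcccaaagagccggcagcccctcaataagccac
Eno2 (chr6:124769674-124769923, minus strand): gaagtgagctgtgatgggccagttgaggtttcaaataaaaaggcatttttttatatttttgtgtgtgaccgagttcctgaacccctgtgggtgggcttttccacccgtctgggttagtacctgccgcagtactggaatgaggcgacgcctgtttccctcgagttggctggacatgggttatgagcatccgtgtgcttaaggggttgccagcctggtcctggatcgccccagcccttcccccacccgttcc
Ldha (chr7:46845554-46845803, plus strand): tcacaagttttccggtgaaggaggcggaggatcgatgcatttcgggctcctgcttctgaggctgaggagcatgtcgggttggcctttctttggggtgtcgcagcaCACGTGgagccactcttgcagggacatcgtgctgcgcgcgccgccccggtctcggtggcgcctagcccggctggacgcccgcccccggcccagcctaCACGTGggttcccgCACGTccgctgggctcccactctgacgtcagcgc
Slc16a3 (chr11:120948817-120949066, plus strand): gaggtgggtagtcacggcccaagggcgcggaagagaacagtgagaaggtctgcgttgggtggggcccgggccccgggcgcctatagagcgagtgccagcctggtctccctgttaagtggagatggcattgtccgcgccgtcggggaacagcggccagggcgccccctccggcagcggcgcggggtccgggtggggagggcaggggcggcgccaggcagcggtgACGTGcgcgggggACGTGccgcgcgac
Ldhb (chr6:142507958-142508207, minus strand): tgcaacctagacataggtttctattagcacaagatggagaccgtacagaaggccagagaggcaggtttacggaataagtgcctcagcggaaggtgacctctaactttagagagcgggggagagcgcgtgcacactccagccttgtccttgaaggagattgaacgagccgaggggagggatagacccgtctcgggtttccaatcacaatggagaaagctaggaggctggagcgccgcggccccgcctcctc
Slc16a1 (chr3:104638414-104638663, plus strand): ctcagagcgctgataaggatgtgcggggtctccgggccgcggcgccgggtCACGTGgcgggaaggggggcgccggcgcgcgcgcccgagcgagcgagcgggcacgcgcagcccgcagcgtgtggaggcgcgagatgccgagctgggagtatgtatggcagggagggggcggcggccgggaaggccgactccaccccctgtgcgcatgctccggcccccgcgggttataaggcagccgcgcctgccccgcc
Pgk1 (chrX:106186850-106187099, plus strand): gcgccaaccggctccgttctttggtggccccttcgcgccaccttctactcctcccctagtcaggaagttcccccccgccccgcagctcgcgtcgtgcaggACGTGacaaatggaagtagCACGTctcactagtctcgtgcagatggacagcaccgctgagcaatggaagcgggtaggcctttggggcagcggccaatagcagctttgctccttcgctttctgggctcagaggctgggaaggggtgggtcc
Of the 5 lower genes shown, Slc2a1 held 1 copy and Hk2, Ldha and Slc16a3 several. Ldha has a further RefSeq start site, whose window, not shown, held none. Eno2, which had the lowest ratio of the pathway, held none either. Of the 3 higher genes shown, Slc16a1 held an E-box and Pgk1 separate copies, while Ldhb held none.

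Glucose enters these cells through the facilitative transporters Slc2a1 and Slc2a3, and they moved in opposite directions. Slc2a1 (GLUT1, the widespread basal transporter, chromosome 4, 118781316 to 118809935 in NCBIM37, the assembly also called mm9) had 1114 reads in the control and 558 in the HTL-treated library. Its log2 ratio was -0.81 (-0.96 to -0.66). Slc2a3 (GLUT3, the high-affinity transporter typical of neurons and early embryos, chromosome 6, 122677827 to 122751658) counted 4079 reads against 6152, with a log2 ratio of 0.78 (0.72 to 0.84). Slc2a3 was the more abundant of the pair per length in both libraries, at 98.4 and 168 FPKM against 41.7 and 23.7 FPKM. Their summed level was therefore higher in the HTL-treated library, at 192 FPKM against 140 FPKM.

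Hexokinases trap glucose by phosphorylation, and Hk2 was lower in the HTL-treated library. Hk2, the inducible isoenzyme of muscle, embryo and tumour cells (chromosome 6, 82675019 to 82724448), had 2720 reads in the control and 1065 in the HTL-treated library. That was a log2 ratio of -1.17 (-1.27 to -1.07), or 2.25-fold lower, with an adjusted p of 6.38e-120 in the exact binomial test. Centred on genes of like length its ratio was -0.89, which ended its call. Hk1, the isoenzyme of brain and red cells, had 601 and 610 reads, 13.9 and 16.0 FPKM, with a log2 ratio of 0.21 (0.042 to 0.37) that did not pass when scaled to the library totals. In the HTL-treated library the level of Hk2, 20.9 FPKM, came near that of Hk1, from 47.1 FPKM in the control. Gpi1, the isomerase that makes fructose 6-phosphate, had 204 and 226 FPKM and was higher by a log2 ratio of 0.15 (0.094 to 0.20). Phosphoglucomutases connect glucose 6-phosphate to glycogen. The genes that the table names Pgm1 and Pgm2, whose names current RefSeq exchanges, did not pass when scaled to the library totals. Pgm1 counted 406 reads against 438, 18.0 and 22.0 FPKM, with a log2 ratio of 0.29 (0.097 to 0.49). Pgm2 counted 750 reads against 725, 31.0 and 34.0 FPKM, with a log2 ratio of 0.14 (-0.013 to 0.29).

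**Figure D2:**
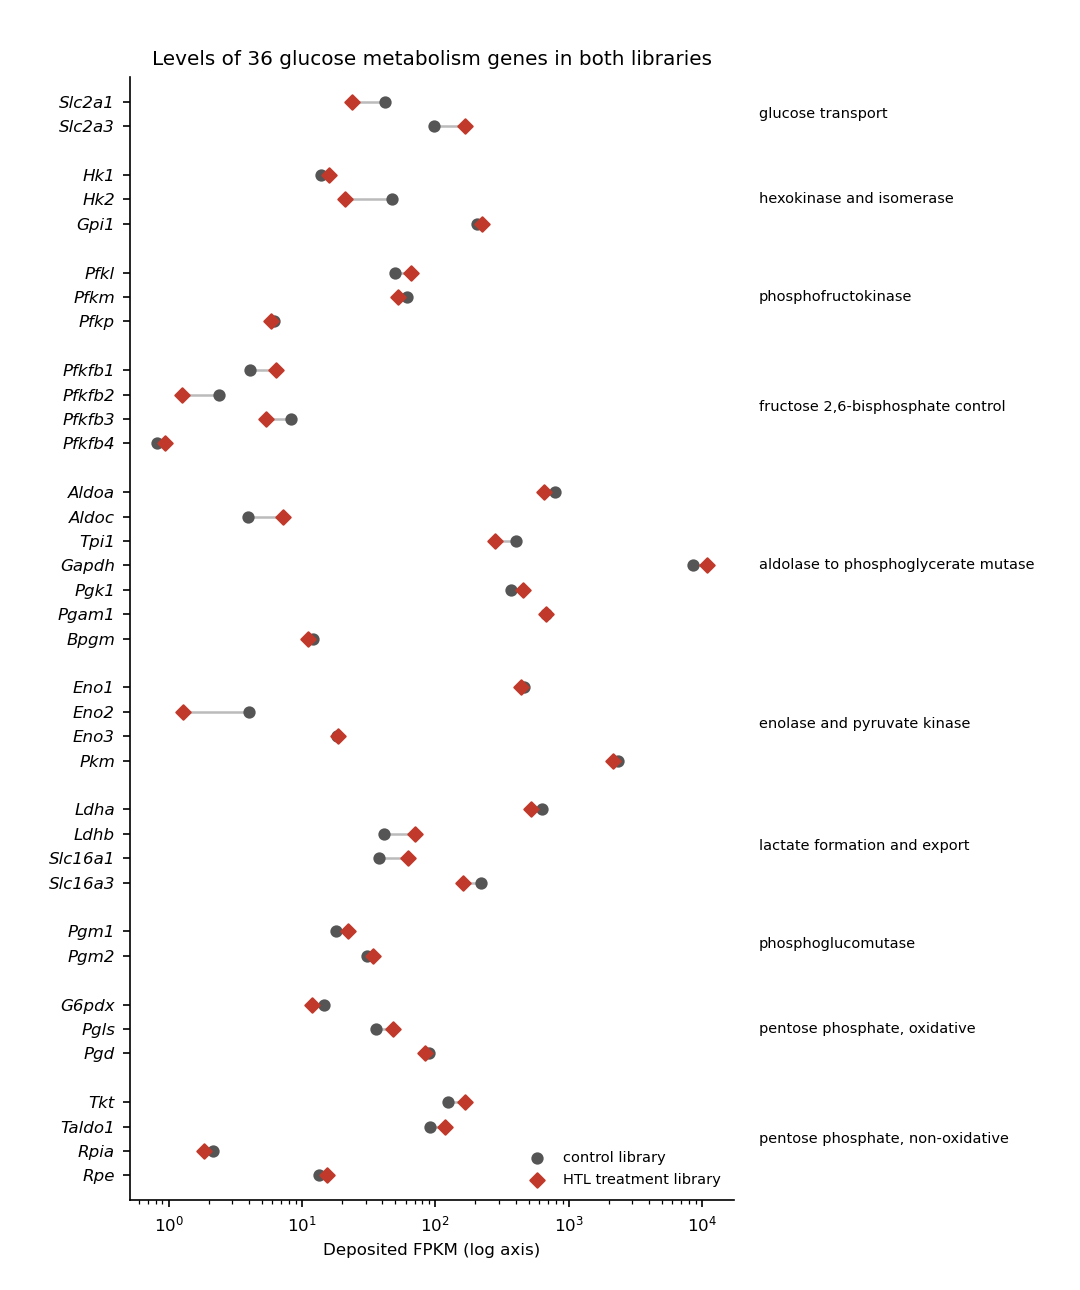
FPKM of each of the 36 genes (x axis, log scale) in the control library (grey circles) and the HTL-treated library (red diamonds), ordered by step. Gapdh sits highest at 8582 and 10884 FPKM, Slc2a1, Hk2 and Eno2 shift left, and Slc2a3, Aldoc, Ldhb and Slc16a1 shift right.

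Phosphofructokinase commits sugar to glycolysis, and its subunit genes did not move together. Pfkl, the liver type, counted 1941 reads against 2264, with a log2 ratio of 0.41 (0.32 to 0.50). Pfkm, the muscle type, counted 1838 reads against 1385, with a log2 ratio of -0.22 (-0.32 to -0.12), which moved to between -0.13 and -0.086 under the other scalings and did not pass there. Pfkp, the platelet type, was the least abundant at 6.15 and 5.90 FPKM, and its ratio of -0.056 (-0.32 to 0.21) was not distinguishable from no change and turned positive under each other scaling. Exons of Pfkp overlap Pitrm1 on the opposite strand, which had far more reads, 1976 and 2044. Pfkm led Pfkl in the control, at 61.2 against 49.7 FPKM, while in the HTL-treated library Pfkl led at 65.8 against 52.4 FPKM.

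The Pfkfb enzymes set the level of fructose 2,6-bisphosphate, the activator of phosphofructokinase. Pfkfb3, the form with the strongest kinase activity, counted 414 reads against 237, with a log2 ratio of -0.62 (-0.86 to -0.39). Pfkfb2, the heart type, counted 141 reads against 74, with a log2 ratio of -0.74 (-1.17 to -0.33). Both were lower, at levels under 10 FPKM. Centred on genes of like length, the ratios were smaller, at -0.34 for Pfkfb3 and -0.36 for Pfkfb2. Under the other scalings Pfkfb3 still passed, but Pfkfb2 did not, with adjusted p from 0.00368 to 0.00687 in the exact binomial test. Exons of Pfkfb2 overlap Yod1 on the opposite strand, which had 69 and 38 reads. Pfkfb1, the liver type, pointed the other way with 74 reads against 102 and a log2 ratio of 0.64 (0.20 to 1.10), but its adjusted p of 0.00695 in the exact binomial test missed the threshold. Its exons overlap Apex2 on the opposite strand, which counted 199 reads against 306 and had a log2 ratio of 0.80, and since the use of strand in counting is not stated, reads of the 2 genes cannot be told apart. Pfkfb4 had 29 reads in each library, and with an interval from -0.61 to 0.98 a difference within those bounds was not detectable at this depth.

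The aldolases split fructose 1,6-bisphosphate, and again the abundant and the rare isoenzyme differed. Aldoa, the main form, had 12299 and 8986 reads, 786 and 652 FPKM, with a log2 ratio of -0.27 (-0.31 to -0.23). Aldoc, the form of brain and astrocytes (chromosome 11, 78136470 to 78141283), counted 109 reads against 178, with a log2 ratio of 0.89 (0.54 to 1.25), the highest of the 36 genes. Aldoc stayed a minor form, at 3.91 and 7.25 FPKM. Tpi1, triose phosphate isomerase, was lower with 6609 reads against 4076 and a log2 ratio of -0.51 (-0.57 to -0.46).

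The next steps harvest energy from triose phosphates. Gapdh, the dehydrogenase of that step and a common reference gene, was the most abundant gene of the whole table per length in both libraries. It had 119510 reads in the control and 135456 in the HTL-treated library, 8582 and 10884 FPKM, with a log2 ratio of 0.37 (0.35 to 0.38). In edgeR's exact test with a biological coefficient of variation of 0.1 its adjusted p was 0.181. By quantitative PCR of NE4C cells given HTL, the study reported Gapdh as unchanged, and whether those were the same cultures is not stated. Its best protein match is shared by 7 other genes, with 113 and 104 reads in all, and adding them left the ratio at 0.37. Gapdh alone took 1.15% of control and 1.49% of HTL treatment reads. All 36 genes together took 2.66% (2.65 to 2.67, exact Clopper-Pearson interval) and 2.94% (2.93 to 2.95), but without Gapdh 1.5% and 1.45%. The larger share of the pathway in the HTL-treated library therefore rested on Gapdh. Pgk1, the kinase that makes ATP next, was higher with 6997 reads against 7578 and a log2 ratio of 0.30 (0.25 to 0.35). Pgam1, the mutase that follows, had 678 and 675 FPKM, with a log2 ratio of -0.0048 (-0.041 to 0.032). Its value turned positive under each other scaling, at most to 0.13. Bpgm, which makes the haemoglobin ligand of red cells, had 257 and 209 reads, a ratio of -0.11 (-0.38 to 0.16) that also turned positive with TMM and median of ratios scaling.

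Among the enolases, which form phosphoenolpyruvate, the neuronal gene had the lowest ratio of the pathway. Eno2 (chromosome 6, 124710071 to 124719691) had 109 reads in the control and 33 in the HTL-treated library. Its log2 ratio was -1.53 (-2.15 to -0.96), or 2.88-fold lower, with an adjusted p of 4.18e-08 in the exact binomial test. Its level was low throughout, 4.0 and 1.28 FPKM. Eno1, the widespread form, had 8672 and 7318 reads, 459 and 439 FPKM, a ratio of -0.059 (-0.10 to -0.014) that did not pass and turned to between 0.034 and 0.077 under the other scalings. The table also lists Eno1b, a near copy of Eno1 that can share its reads, at 4840 and 3995 reads. Summed, the 2 genes had a log2 ratio of -0.071 (-0.11 to -0.035), which passed with an adjusted p of 0.000333 in the exact binomial test. Its direction depended on the scaling: the sum turned to between 0.023 and 0.066 under the other scalings, added after the values were seen, and with median of ratios scaling it passed as higher (adjusted p of 0.000952, exact binomial test). Eno3, the muscle form, did not differ detectably at 279 and 253 reads, with a ratio of 0.044 (-0.21 to 0.30). Pkm, pyruvate kinase, ranked 18 among all genes by FPKM in the control and 39 in the HTL-treated library. It counted 59290 reads against 48032, with a log2 ratio of -0.12 (-0.14 to -0.10), close to that of the median gene, and turned positive with TMM and median of ratios scaling. The table does not split Pkm into its splice forms.

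**Figure D3:**
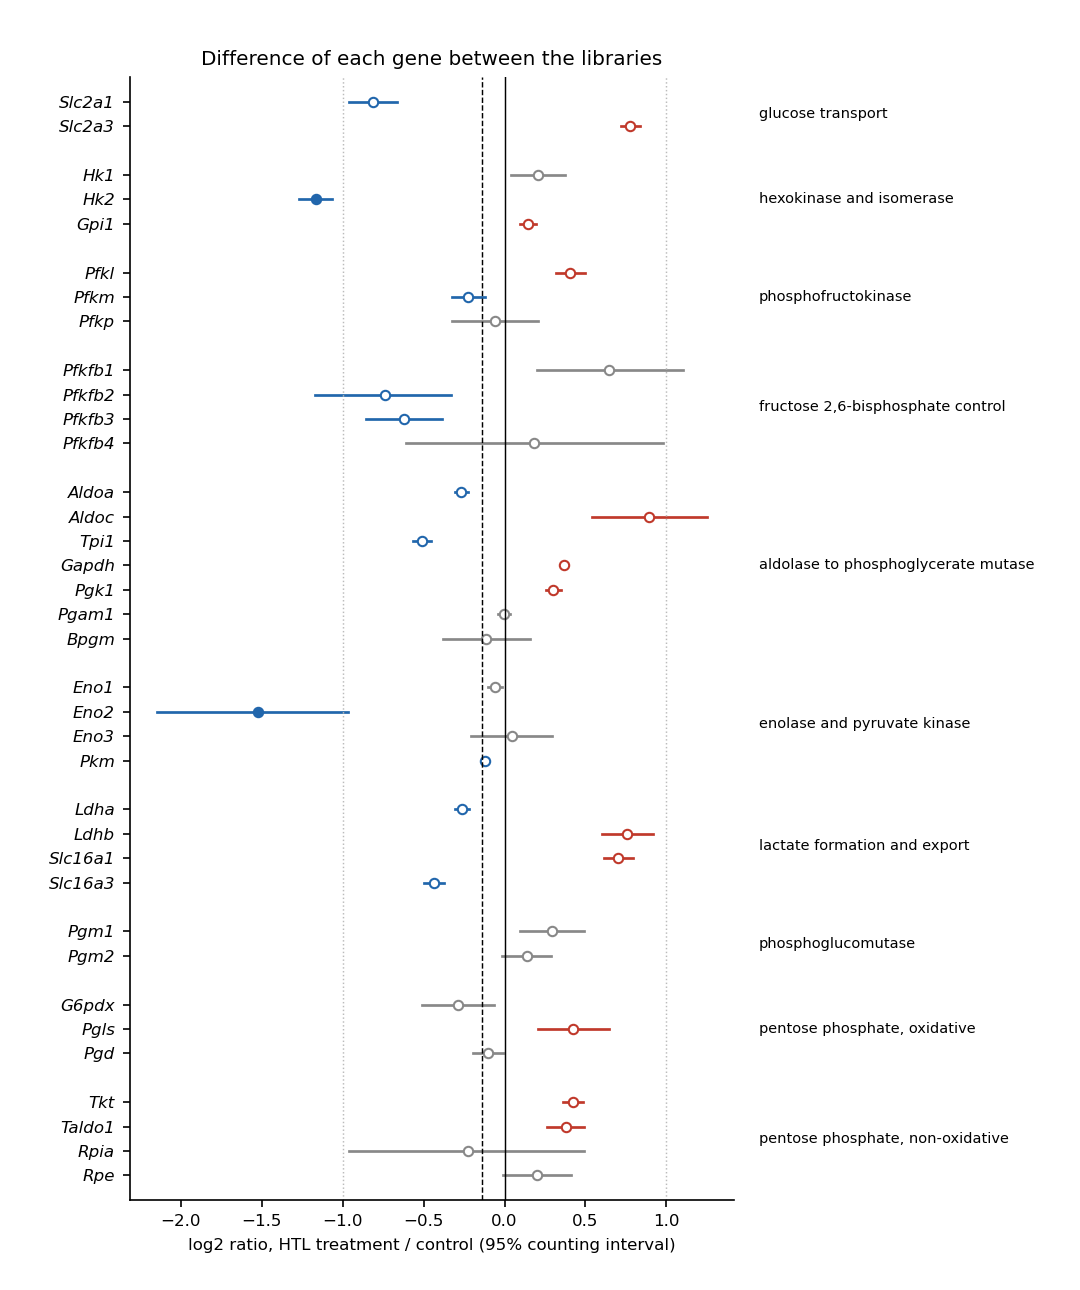
Log2 ratio of each gene (x axis, HTL treatment over control, scaled to library totals) with its 95% counting interval. Red marks genes higher and blue genes lower at an adjusted p of at most 0.001, grey the rest, and the filled points are Hk2 and Eno2, the only genes past a log2 ratio of 1 (dotted lines); the dashed line is the median of all genes at -0.14.

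In lactate dehydrogenase and in the monocarboxylate transporters, the partners differed in opposite directions. Ldha, whose subunit is typical of tissues that make lactate (chromosome 7, 54096845 to 54110997), had 10721 reads in the control and 7850 in the HTL-treated library. Its log2 ratio was -0.26 (-0.31 to -0.22). Ldhb, whose subunit is typical of tissues that burn lactate (chromosome 6, 142438769 to 142456477), counted 557 reads against 829, with a log2 ratio of 0.76 (0.60 to 0.92). Among the transporters, Slc16a3 (MCT4, the exporter of glycolytic cells, chromosome 11, 120809794 to 120822182) was lower with 5615 reads against 3650 and a log2 ratio of -0.44 (-0.50 to -0.38). Slc16a1 (MCT1, which carries lactate in either direction, chromosome 3, 104442591 to 104462385) was higher with 1764 reads against 2525 and a log2 ratio of 0.70 (0.61 to 0.79). All 4 kept their direction and passed under each scaling, but none passed in edgeR's exact test with a biological coefficient of variation of 0.1, where the adjusted p was 0.362 for Ldha, 0.00427 for Ldhb, 0.00558 for Slc16a1 and 0.106 for Slc16a3. The gene of each pair that dominated the control, Ldha and Slc16a3, was the lower, so the summed level of the 4 genes went from 925 to 816 FPKM. Exons of Slc16a3 overlap Csnk1d on the opposite strand, and Csnk1d went the other way, with 2262 and 3668 reads.

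In the pentose phosphate pathway, 2 of the 4 genes of the non-oxidative arm and 1 of the 3 genes of the oxidative arm were higher, and none passed as lower, where 14.5% of all genes tested passed as higher and 24.1% as lower (33.6% and 38.1% of genes read at least as deeply as the median of the 36). G6pdx, the entry enzyme that makes the first NADPH, counted 398 reads against 287 and had a ratio of -0.29 (-0.51 to -0.064) that did not pass. Its exons overlap Ikbkg on the opposite strand, which had 149 and 71 reads and a ratio of -0.88. Pgls, the lactonase of the next step, had 321 and 379 reads and was higher by 0.42 (0.21 to 0.64). Exons of Pgls overlap Fam129c on the same strand, which had 30 and 5 reads. Pgd, which makes the other NADPH, was at 89.5 and 83.2 FPKM with a ratio of -0.10 (-0.20 to -0.0088) that did not pass. Of the non-oxidative genes, which exchange sugars with glycolysis, transketolase Tkt counted 4230 reads against 4987 and had a log2 ratio of 0.42 (0.36 to 0.48). Transaldolase Taldo1 counted 1193 reads against 1363 and had a ratio of 0.38 (0.26 to 0.49). Both passed under each scaling, while the isomerase Rpia, at 40 and 30 reads (-0.23, -0.96 to 0.49), and the epimerase Rpe, at 377 and 381 reads (0.20, -0.0085 to 0.41), did not. The summed level of the 4 non-oxidative genes was 232 FPKM in the control and 303 FPKM in the HTL-treated library, and that of the 3 oxidative genes 140 and 143 FPKM.

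Because the ratio of 2 genes within a library needs no scaling, the balance of related genes was compared directly for 12 pairs. The balance is the read ratio of the genes in the HTL-treated library divided by that in the control, with an exact 95% interval. It was above 1 in 3 pairs, below 1 in 5, and the interval held 1 in 4. The largest move was in glucose transport, where the balance of Slc2a3 to Slc2a1 was 3.01 (2.70 to 3.36). Slc2a3 made up 70.2% of the pair's FPKM in the control and 87.7% in the HTL-treated library. Aldoc to Aldoa moved by 2.24 (1.75 to 2.87), though Aldoc gave only 0.495% and 1.10% of the pair's FPKM. Ldhb to Ldha moved by 2.03 (1.82 to 2.28), with the share of Ldhb going from 6.19% to 12%.

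In the opposite direction, the balance of Hk2 to Hk1 was 0.386 (0.337 to 0.442), and the share of Hk2 in their summed FPKM went from 77.2% to 56.7%. Slc16a3 to Slc16a1 was at 0.454 (0.422 to 0.489), with the share of Slc16a3 going from 85.2% to 72.4%. Against Pfkl, the balance was 0.646 (0.588 to 0.709) for Pfkm and 0.725 (0.597 to 0.880) for Pfkp. Eno2 to Eno1 was at 0.359 (0.235 to 0.535), with Eno2 under 1% of the pair in both libraries. Adding Eno1b to Eno1 gave 0.362. Among these pairs Slc16a3 and Slc16a1 passed the test of the libraries in opposite directions, as did Pfkm and Pfkl, while for the enolases and hexokinases only the rarer Eno2 and the more abundant Hk2 passed. No shift was detected for Pfkfb4 to Pfkfb3 (1.75, 0.980 to 3.11), Eno3 to Eno1 (1.07, 0.900 to 1.28), Pgm2 to Pgm1 (0.896, 0.754 to 1.07) or Bpgm to Pgam1 (0.928, with the upper bound at 1.12 and the lower at 0.768), and the widths of these intervals show how large a shift could have gone unseen.

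**Figure D4:**
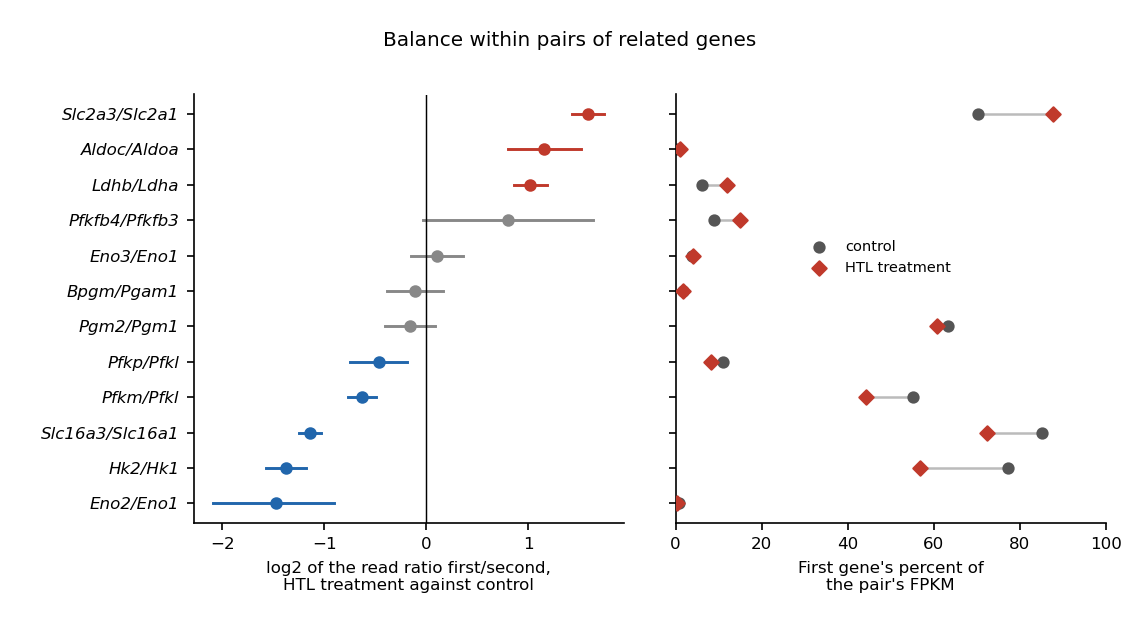
Left, log2 of the read ratio of the named genes in the HTL-treated library against the control, with the exact 95% interval (red above 0, blue below 0, grey where the interval holds 0). Right, the share of the gene named before the slash in the pair's FPKM (percent) in the control (grey circles) and the HTL-treated library (red diamonds), which goes from 70.2% to 87.7% for Slc2a3 and from 77.2% to 56.7% for Hk2.

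Transcript length and overlapping genes moved with some of these values. Over all genes tested, longer transcripts had lower ratios, with medians from 0.14 among the shortest to -0.38 among the longest of 10 length classes. After each ratio was centred on genes of like length, the median of the 36 genes was 0.10. Hk2, at -0.89, was no longer called lower, and Aldoc, at 1.02, was called higher. Among the other genes that passed, Pfkm went to -0.093, Pkm to -0.0056 and Gpi1 to 0.28. The balance of a pair of unlike length carries that trend too, and its part in the pairs was not tested. Of the 36 genes, 11 have exons that overlap those of a gene annotated on the other strand, and 2 those of a gene on their own strand. Besides the partners given above, Itgb3bp, opposite Pgm2, had 99 and 52 reads, and Spsb2, opposite Tpi1, had 31 and 28. The partners of Slc2a1, Hk1, Gpi1, Tkt and Rpe were not analysed here.

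Genes around the pathway were described for comparison from a list of 77 genes that handle glucose and its products, of which 58 were tested. Of these, 8 were higher and 9 lower by the same adjusted p, beside 14.5% and 24.1% of all genes tested, and their median log2 ratio was 0.0033. With the cutoff on the log2 ratio as well, 1 was called higher and 5 lower, beside 2.81% and 7.98% of all genes. Other scalings would raise each of these ratios as they raise the median gene, which went from -0.14 to at most -0.0011. The lowest adjusted p was that of Pdk1, a kinase that shuts off pyruvate dehydrogenase, with 885 reads in the control and 159 in the HTL-treated library, with a log2 ratio of -2.29 (-2.54 to -2.05). Pdk2, of the same family, had 72 and 18 reads, a ratio of -1.79 (-2.65 to -1.05), while Pdk3 had 317 and 298 reads and did not pass. Of the dehydrogenase complex itself, Dlat (0.40) and Pdhb (0.24) were higher, and Pdha1 (-0.080), Dld (-0.12) and Pdhx (0.16) did not pass. Pcx, which carries pyruvate to oxaloacetate, was higher with 812 and 1066 reads.

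Other transporter and branch genes were called as well. The insulin-responsive transporter Slc2a4 counted 50 reads against 12, with a log2 ratio of -1.83 (-2.92 to -0.94). Slc16a4, a relative of the lactate transporters, had 39 and 3 reads, a ratio of -3.33 with a wide interval (-5.85 to -1.86). H6pd, the pentose phosphate enzyme of the endoplasmic reticulum, had 127 and 53 reads, a ratio of -1.07 (-1.57 to -0.60), or -0.79 when centred on length. Uap1, which makes the donor of N-acetylglucosamine, was the only gene of the list called higher, with 270 reads against 485 and a ratio of 1.03 (0.81 to 1.25). Tigar, a phosphatase that lowers fructose 2,6-bisphosphate, was higher with 386 and 551 reads, a ratio of 0.70 (0.51 to 0.89). Tigar and the Pfkfb kinases act on the same metabolite.

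Some regulators of the pathway differed by more than any of its 36 genes, and others by less. Txnip, an arrestin that limits glucose uptake, had 23 reads in the control and 621 in the HTL-treated library, and its relative Arrdc4 counted 88 reads against 494, with a log2 ratio of 2.67 (2.34 to 3.02). Both are textbook targets of the glucose sensor genes Mlx, Mlxip and Mlxipl, which had log2 ratios of -0.064, -0.23 and -1.17, of which only that of Mlxip passed. Centred on genes of like length, Mlxip was at 0.15, so its direction turned. Myc had 538 and 111 reads. Hif1a, the regulated HIF subunit, was lower with 1526 and 1092 reads, a ratio of -0.30 (-0.41 to -0.18) that was -0.017 when centred on length, and its partner Arnt with 1306 and 805 reads, a ratio of -0.51 (-0.64 to -0.38), or -0.31 when so centred. Egln1, the oxygen sensor that marks HIF for decay, was at -0.73 (-0.92 to -0.55), while Egln3 (-0.51), Epas1 (-1.31) and Vhl (0.42) did not pass.

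Of genes outside glycolysis, 4 textbook HIF targets, chosen with earlier results of these data known, were set beside the pathway. Bnip3, which marks mitochondria for removal, had 1638 and 136 reads. The secreted hormone gene Stc1 had 201 and 18 reads (log2 ratio -3.26, -4.08 to -2.60), and the stress-responsive Ndrg1 had 189 and 45 reads (log2 ratio -1.87, -2.39 to -1.41). Vegfa, a growth factor for vessels, was higher, with 357 and 841 reads. All 4 log2 ratios lay outside the range of the 36 genes, from -1.53 to 0.89. Given how they were chosen, they do not stand for HIF targets at large.

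**Figure D5:**
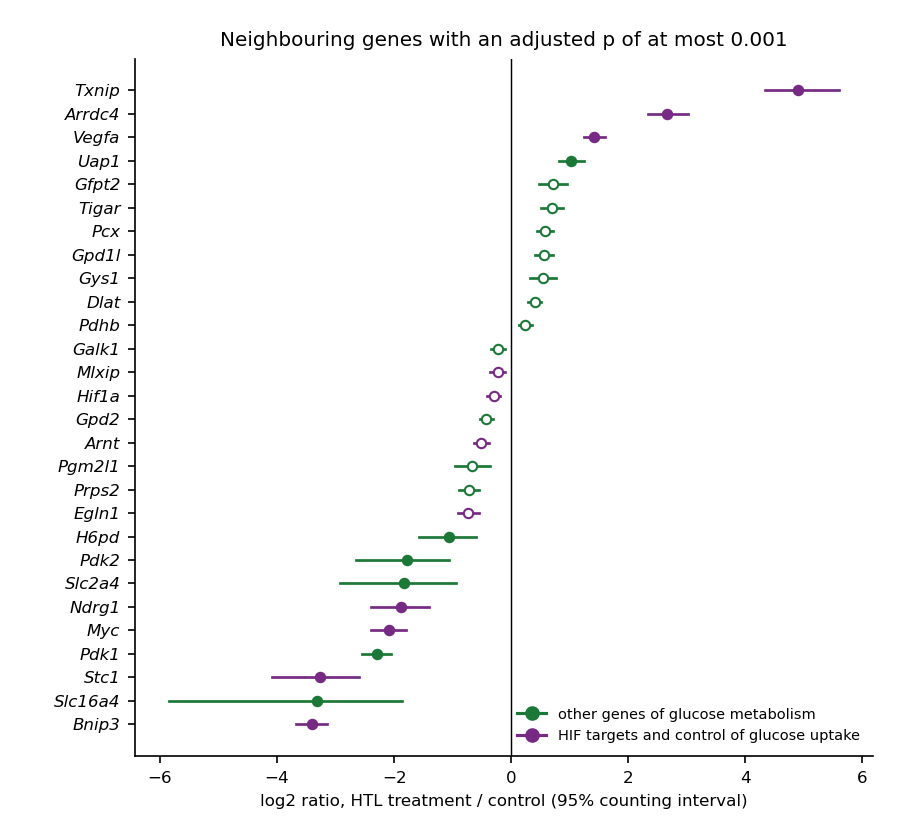
Log2 ratio (x axis, HTL treatment over control) with its 95% counting interval for the 28 genes around the pathway that had an adjusted p of at most 0.001, 17 other genes of glucose metabolism (green) and 11 HIF targets and regulators (purple). Filled points are past a log2 ratio of 1 in either direction, and the genes run from Txnip, furthest right, to Bnip3, furthest left.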

How the data were processed

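Total RNA of 1 control and 1 HTL treatment culture was made into libraries with a TruSeq kit and sequenced with BGISEQ protocols. The authors mapped reads to mouse genome and gene sequences, and RSEM gave the deposited estimated counts, which are not normalized. The submitters' processing notes name the build mm9; the mapper, the annotation and the use of strand are not given in the sources used here. The deposited FPKM divide them by transcript length and library size. The deposited table also holds the authors' own comparison, with ratios on a log2 scale, p-values and false discovery rates, which was not used.

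Estimated counts were rounded to whole numbers, and 3361 of 16803 genes were left out for fewer than 10 reads in both libraries together. A two-sided exact conditional binomial test (scipy 1.17.1, Python 3.11.15) compared a gene's reads with the library totals, and p-values were adjusted over all genes tested by the Benjamini-Hochberg method. Calls needed an adjusted p no higher than 0.001 and a log2 ratio of 1 or more in size, as in the study's methods. Before ratios were taken 0.5 read, scaled to library totals, was added. Intervals are exact (95%, Clopper-Pearson, or conditional for pairs) and, since the reads carry no molecular identifiers and may repeat a molecule, cover counting error only. A count of 0 allows 3 reads, which is 0.290 CPM in the control and 0.330 CPM in the HTL-treated library. Without replicates neither DESeq2 nor edgeR's quasi-likelihood test could be fitted; edgeR 4.0.16 (R 4.3.3) was used for its exact test with assumed coefficients of variation of 0.1, 0.2 and 0.4.

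Every gene of the pathway is accounted for. Those called, and in each role the most deeply read and those with the highest and lowest ratio, are given with both libraries' values. Of the 77 other genes of glucose metabolism, those called with a mean of at least 20 reads were to be named, as could the 16 regulators and HIF targets; further genes of that list were named after their values were seen. The genes, lists, pairs and tests were chosen with earlier results of these data known. Gene spans are from NCBIM37 (GENCODE M1) and promoter windows from RefSeq on GRCm38.p6, matched by gene ID. Counts were simulated for 16803 genes with counting error only. Of 200 of the more deeply read genes, changed by 1.5 on the log2 scale, 200 were called, and 0 unchanged genes were. The true ratio lay in 95.5% of the intervals. Variation between cultures was not simulated, so these figures do not bear on it. Alternatives were other scalings, filters, added reads, FPKM + 1, cutoffs, summed near copies and centring on length.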

Additional observations from a re-analysis of the deposited data

How the results depend on the processing

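Replicates were lacking, so no library could be left out. No paired analysis was possible because there was only 1 library for either condition. The scalings shifted all genes upward, moving the median of all genes tested from -0.14 to between -0.044 and -0.0011, by construction, and the median of the 36 genes from 0.020 to 0.16 with median of ratios scaling. With scaling to the library totals 2 genes were called lower and 0 higher. TMM and median of ratios scaling each called 1 higher, Aldoc. Centring on length called 1 lower and 1 higher, and Hk2 lost its call. Without a cutoff on the log2 ratio 11 were lower and 11 higher; with a cutoff of 2, 0 were lower; with 0.5, added after seeing the data, 6 were lower and 4 higher. An assumed coefficient of variation of 0.2 or 0.4 left 0 lower, with 120 and 6 of 13442 genes called against 1450; the FPKM + 1 ratio called 816. Without Gapdh the share of reads was 1.5% in the control and 1.45% in the HTL-treated library. Log2 ratios near 0 changed sign under TMM, median of ratios, upper quartile scaling and length centring: Pfkp to 0.073, 0.080, 0.037 and 0.15, and Pgam1 to 0.13, 0.13, 0.089 and 0.044. Under the first 3 of these Eno1 went to 0.071, 0.077 and 0.034, and its sum with Eno1b to 0.059, 0.066 and 0.023. Under TMM, median of ratios and length centring Bpgm went to 0.017, 0.024 and 0.00014, and Pgd to 0.028, 0.034 and 0.010. Pkm went to 0.012 with TMM and 0.018 with median of ratios scaling. With that coefficient at 0.1 Hk2 and Eno2 stayed called, but of the 22 genes with an adjusted p of at most 0.001 only these 2 kept it. The other filters, 5 reads added, an adjusted p of 0.05 and summed near copies changed no call or direction of the 36 genes; Eno1 summed with Eno1b gained a pass at 0.001, below the log2 cutoff and, with median of ratios scaling, in the other direction.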

Other observations

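In the hexosamine branch, which turns fructose 6-phosphate into the sugar donor of protein glycosylation, only Uap1 and Gfpt2 of 5 genes passed the test, both as higher, beside 14.5% of all genes tested. Gfpt2, an entry enzyme of that branch, went from 240 to 345 reads (log2 ratio 0.71, 0.47 to 0.95), while Gfpt1, its widespread relative, had 365 and 323 reads (0.0091, -0.21 to 0.23). In the glycerol branch Gpd1l was higher with 642 and 835 reads, and the mitochondrial Gpd2 was lower with 1612 and 1054 reads (log2 ratio -0.43, but only -0.15 when centred on genes of like length). Gys1, which makes glycogen, was higher with 315 and 403 reads. Prps2, which turns ribose 5-phosphate into the precursor of nucleotides, was lower with 783 and 419 reads (-0.72, -0.89 to -0.54), while its relative Prps1 had 1235 and 1200 reads and did not pass.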
